A study of Mus musculus with 4 samples.

Results

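Wnt7a, En1, Lmx1b, Sp6, Sp8 and Sp9 were examined in RNA sequencing libraries of mouse forelimb. These 6 genes were chosen by name, as the factors that set the dorsal to ventral axis of the limb and that act in its apical ridge, and they are 6 of the 17712 genes in the deposited table. Wild-type forelimbs were compared with forelimbs of Shh null littermates, in 2 libraries per genotype, all from Swiss Webster embryos, an outbred stock, with 33 to 35 somites. The age label gives E10.25 and the source label E10.5, in days of embryonic development. Apart from the Shh genotype the labels name no allele or treatment, and they do not describe the null allele or say how many embryos went into a library. The design text calls the replicates technical, and nothing names separate embryos, so the spread behind each p-value may be technical.

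The limb bud is a core of mesenchyme under a sheet of ectoderm, with a thickened ridge of ectoderm at its tip. Dorsal ectoderm secretes the ligand Wnt7a, which induces the LIM homeodomain gene Lmx1b in the dorsal mesenchyme, while ventral ectoderm expresses the homeodomain repressor En1, which keeps Wnt7a out of the ventral side. BMP signalling to the ectoderm is needed for En1. The zinc finger factors Sp6, Sp8 and Sp9 act downstream of WNT and beta-catenin signalling in the limb ectoderm. Sp6 and Sp8 are needed to form the ridge and its Fgf8 expression. Shh, from the posterior mesenchyme, and the ridge FGFs maintain each other. Of the 6 genes, Lmx1b is thus known as a gene of the mesenchyme, although it stands in a set named for ectoderm. Whole forelimbs were sequenced, so neither the ectodermal nor the dorsal or ventral origin of any read was measured.

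The start regions of the 3 genes that set the dorsal to ventral axis are shown because En1 and Wnt7a are the pair whose balance the comparison below turns on, with Lmx1b as the gene that responds to Wnt7a. They are the bases before the RefSeq start site on the gene's own strand (RefSeq, GRCm38.p6), 5′ to 3′, without those that lie inside the GENCODE gene. Capitals mark GC boxes (GGGCGG or its complement CCGCCC), the letters that Sp family zinc fingers are known to bind, and CCAAT boxes (CCAAT or its complement ATTGG).
En1 (chr1:120602237-120602417, plus strand): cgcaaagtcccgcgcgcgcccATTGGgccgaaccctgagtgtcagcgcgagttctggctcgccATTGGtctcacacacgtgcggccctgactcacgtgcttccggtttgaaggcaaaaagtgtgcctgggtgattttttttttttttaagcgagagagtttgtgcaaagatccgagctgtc
Wnt7a (chr6:91411364-91411603, minus strand): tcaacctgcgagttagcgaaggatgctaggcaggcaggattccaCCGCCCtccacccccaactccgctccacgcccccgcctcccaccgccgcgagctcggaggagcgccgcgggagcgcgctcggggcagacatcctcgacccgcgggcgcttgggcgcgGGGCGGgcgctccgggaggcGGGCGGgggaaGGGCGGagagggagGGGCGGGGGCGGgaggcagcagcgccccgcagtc
Lmx1b (chr2:33641099-33641348, minus strand): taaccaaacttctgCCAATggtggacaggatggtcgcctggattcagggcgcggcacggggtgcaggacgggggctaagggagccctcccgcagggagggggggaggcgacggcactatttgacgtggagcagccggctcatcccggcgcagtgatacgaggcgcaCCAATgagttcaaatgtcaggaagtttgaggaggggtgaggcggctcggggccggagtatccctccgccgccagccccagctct
The Wnt7a region held 6 GC boxes and no CCAAT box, whereas those of En1 and Lmx1b each held 2 CCAAT boxes and no GC box. No matches overlapped. Over the 250 bases before the start, 32.7% of 32851 RefSeq promoters held at least 1 GC box and 0.886% held 6 or more, while 33.8% held a CCAAT box and 10.1% held 2 or more. The same windows had a GC content of 77.6% in Wnt7a, 56% in En1 and 65.2% in Lmx1b, against a median of 52.4% over all promoters. The sequences cover 5 of the 6 genes, with 7 start sites. Searched on both strands at these 7 sites, a GLI core (GGGTGGTC, in 0.703% of promoters) and a TCF/LEF core (CTTTGAT, in 3.21%) were not found, and a homeodomain core (TAATTA, in 4.84%) was found at 1 of the 3 Sp8 start sites. A match is a run of letters and not a measured binding site.

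Values are CPM, read counts relative to a library size that was scaled between samples. Between 18456502 and 29620468 reads per library were assigned to genes, so a single read was worth 0.0351 to 0.0551 CPM. Shh was measured at 3.15 and 2.42 CPM with the null genotype, against 11.4 and 7.88 CPM without it, so the labelled direction held. This was a 3.45-fold fall (limma, log2 fold change −1.47 ± 0.21 SE, adjusted p = 0.00615). Without Shh null 1 or Shh null 2 the log2 fold change was −1.61 or −1.34. A fit without a library takes its spread from the other genotype alone, so only log2 fold changes are given from such fits. Reads could not be separated by strand, and Shh exons share 446 and 361 bases with antisense genes. Of 13224 genes tested with limma on log2(CPM + 1), 164 were called higher and 164 lower in Shh null at an adjusted p under 0.05, which is 2.48%. The libraries also differed in the sex-linked genes, with Xist 2.63-fold higher and Ddx3y 2.77-fold lower in Shh null, and in red cell genes, whose summed level was 5209 CPM in wild type 1 and 1422 to 2780 CPM in the others. The part of either in the results below was not tested, except that log2 fold changes without wild type 1 are given for the 6 genes. For a single gene, a two-sided exact permutation test with 2 libraries a side has 0.333 as its smallest p.

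None of the 6 genes passed the test, against 2.48% of all genes tested. En1 came closest and was 1.81-fold higher in Shh null, the other genes lay between 1.15-fold lower and 1.77-fold higher, and the median log2 fold change of the 6 was 0.13 against −0.0005 for all genes. Counts of calls were also 0 of 6 with edgeR and with DESeq2 on the recovered reads, which called 2.45% and 3.98% of all genes. At an unadjusted p under 0.05, 1 of the 6 (En1) passed, against 18.5% of all genes. The values of the 2 groups did not overlap for 4 of the 6 genes, beside 50.2% of all genes tested. Sp9, 1 of these 4, was tested only because its Shh null values were above 1 CPM, so its lack of overlap adds nothing. The same limit holds for its 1.77-fold value and its part in the median. In bulk tissue, fewer cells of a type and less RNA per cell cannot be told apart, and this holds for every value below.

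Wnt7a, the dorsal ectodermal ligand (chromosome 6, 91363981 to 91411363, minus strand, mm10), was read 203 and 136 times in wild type and 153 and 138 times in Shh null. These reads gave 7.12 and 7.49 CPM in wild type and 6.35 and 6.31 CPM in Shh null. Both Shh null libraries were below both wild-type libraries, by a small margin. The means of 7.31 ± 0.260 and 6.33 ± 0.0228 CPM (SD, n = 2) differed 1.15-fold. The log2 fold change was −0.18 ± 0.157 SE (95% interval −0.53 to 0.17, limma, adjusted p = 0.581). With the reads of a group pooled, the ratio of Shh null to wild type was 0.871, with a 95% interval from counting error alone of 0.742 to 1.02. A log2 fold change of 0.71 in either direction would have been needed for a call at this spread, so a smaller difference was not detectable here.

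En1, the ventral ectodermal repressor (chromosome 1, 120602418 to 120607992, plus strand), was read 101 and 64 times in wild type and 139 and 153 times in Shh null. Its level was 3.54 and 3.53 CPM in wild type and 5.76 and 7.00 CPM in Shh null. The wild-type libraries were all but equal, and both Shh null libraries were well above them. Counting intervals for the wild-type libraries (2.89 to 4.31 and 2.72 to 4.50 CPM) did not reach those of Shh null (4.85 to 6.81 and 5.93 to 8.20 CPM). The means of 3.54 ± 0.0132 and 6.38 ± 0.873 CPM (SD, n = 2) gave a log2 fold change of 0.70 ± 0.174 SE, with a 95% interval of 0.31 to 1.09. In limma the unadjusted p was 0.0026 and the adjusted p 0.0713, and 3.637% of tested genes had a smaller p. A log2 fold change of 0.78 would have been needed for a call. Leaving out wild type 1, the library rich in red cell RNA, gave a log2 fold change of 0.70 (limma). In the authors' deposited table, made on the same libraries, En1 had a log2 fold change of 0.849 and a false discovery rate of 0.0209, under the 0.05 that 4.01% of that table's genes met. An edgeR fit with the replicate number as a block, added after the data were seen, gave an adjusted p of 0.0437 for En1, edgeR without the block 0.0775, and DESeq2 0.117. The labels do not pair libraries by number, so that block has no basis in the design. The En1 difference therefore stood close to the threshold and lay on either side of it with the model used.

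Lmx1b, the dorsal mesenchymal gene induced by Wnt7a (chromosome 2, 33560965 to 33640511, minus strand), was read 306 and 186 times in wild type and 316 and 249 times in Shh null. Its level was 10.7 and 10.247 CPM in wild type and 13.1 and 11.4 CPM in Shh null. Both Shh null libraries were above both wild-type libraries, with the distance between the Shh null libraries larger than that between wild type 1 and Shh null 2. The means were 10.493 ± 0.348 and 12.2 ± 1.21 CPM (SD, n = 2), a 1.17-fold difference. On the log2 scale this was 0.20 ± 0.149 SE (95% interval −0.13 to 0.54, limma, adjusted p = 0.506). Pooled reads gave a ratio of 1.17 (counting interval 1.03 to 1.32).

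**Figure D1:**
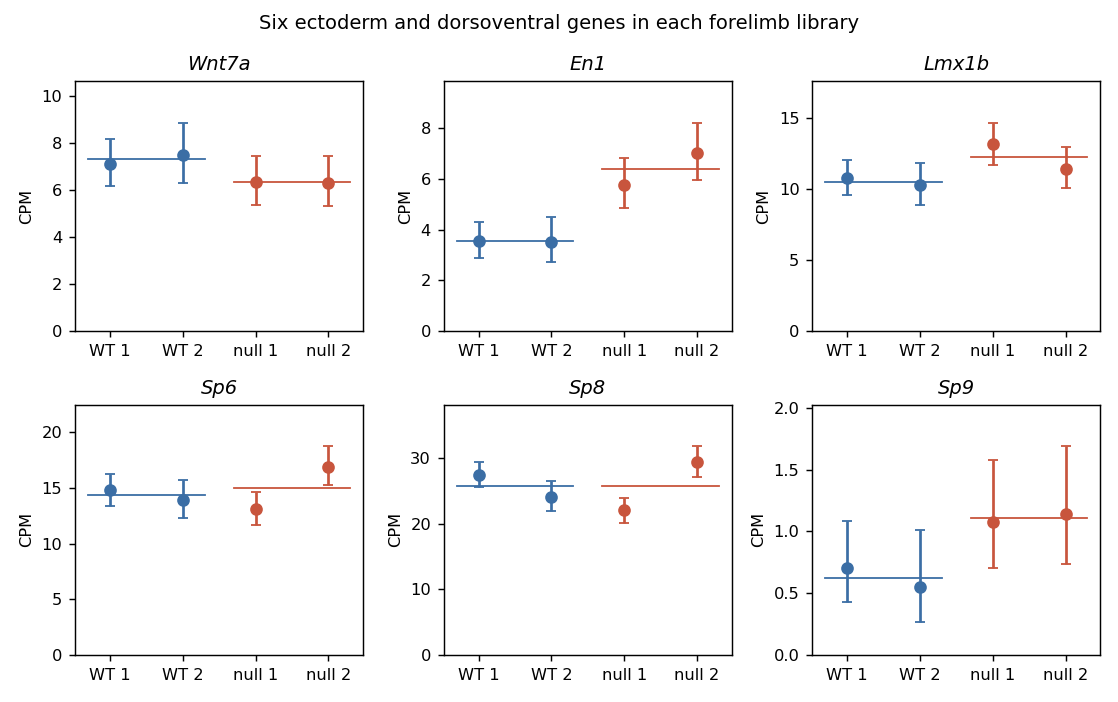
CPM of each gene in the 4 libraries (WT, wild type; null, Shh null), with a vertical axis from 0 in each panel; points are libraries, bars the 95% interval from counting error alone, and horizontal lines the group means. En1 sits at 3.54 and 3.53 CPM in wild type and at 5.76 and 7.00 CPM in Shh null, with bars that do not meet, whereas the Shh null points of Sp6 and Sp8 lie on both sides of wild type.

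Within a library, the ratio of En1 to Wnt7a was 0.909 and 1.11 in the Shh null libraries and 0.498 and 0.471 in the wild-type ones. Both Shh null libraries were above both wild-type libraries, and the mean ratio was 2.08 times as high in Shh null. The ratio of Lmx1b to Wnt7a was 1.51 and 1.37 in wild type, against 2.07 and 1.80 in Shh null. Neither gene's ratio to Wnt7a overlapped between the groups. This adds nothing, because Wnt7a was lower, and En1 and Lmx1b higher, in both Shh null libraries than in both wild-type ones. Both ratios also share Wnt7a as their denominator. Ratios within a library do not depend on the scaling between libraries, but they were chosen after the values were seen, and no test was made of them.

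Sp8, which codes for the ridge zinc finger factor needed for limb outgrowth (chromosome 12, 118846329 to 118852576, plus strand), was the most abundant of the 6. It stood at 27.4 and 24.1 CPM in wild type and at 22.0 and 29.4 CPM in Shh null, from 437 to 782 reads. The lowest and the highest library were both Shh null, and the groups overlapped. Means of 25.8 ± 2.38 and 25.7 ± 5.22 CPM (SD, n = 2) gave a log2 fold change of −0.02 ± 0.155 SE, with a 95% interval of −0.36 to 0.33 (limma, adjusted p = 0.971). Counting error alone did not cover the spread within Shh null, where the intervals were 20.1 to 23.9 and 27.1 to 31.7 CPM. The sign of this small difference turned without wild type 1 (0.08) and without Shh null 1 (0.19).

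Sp6, the relative of Sp8 that acts with it in the ectoderm (chromosome 11, 97013394 to 97024734, plus strand), stood at 14.8 and 13.9 CPM in wild type and at 13.1 and 16.9 CPM in Shh null. As for Sp8, Shh null 1 was the lowest library and Shh null 2 the highest. The means of 14.4 ± 0.616 and 15.0 ± 2.70 CPM (SD, n = 2) differed by 0.05 ± 0.157 SE on the log2 scale (95% interval −0.30 to 0.40, limma, adjusted p = 0.901). Its sign turned without Shh null 2 (−0.12), and without wild type 1 it was 0.09. Within Shh null the counting intervals (11.7 to 14.6 and 15.2 to 18.7 CPM) again did not meet. The ratio of Sp6 to Sp8 varied less than either gene, at 0.540 and 0.579 in wild type, against 0.596 and 0.576 in Shh null. An antisense gene, Gm11532, covers 3329 of the 3841 bases of Sp6 exon, and its reads were not analysed here, so the Sp6 value may hold reads from either strand.

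Sp9, the third ridge factor of the family (chromosome 2, 73271925 to 73284706, plus strand), was rare, with 20 and 10 reads in wild type, against 26 and 25 in Shh null. Its level was 0.702 and 0.551 CPM in wild type and 1.08 and 1.14 CPM in Shh null, above the 0.105 to 0.165 CPM that 3 reads make. Both Shh null libraries were higher, and only they were above the 1 CPM that the filter on low values asks of 2 libraries, so Sp9 was tested only through the group in which it is high. Its log2 fold change of 0.38 ± 0.197 SE (95% interval −0.06 to 0.82, limma, adjusted p = 0.340) understates the ratio of means of 1.77, because 1 was added to each value before the logarithm. Pooled reads gave a ratio of 1.72 with a counting interval of 1.08 to 2.81. On the opposite strand, Cir1 shares 270 bases of exon with Sp9 and stood at 6.56 and 11.3 CPM in wild type and at 11.4 and 11.9 CPM in Shh null. The part of its reads in the Sp9 value was not tested.

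Levels of different genes were compared per kilobase of exon, on the deposited CPM. Sp8 came first, at 4.82 to 6.44 CPM per kilobase over the 4 libraries (mean 5.64), and Sp6 second, at 3.41 to 4.41 (mean 3.83). Lmx1b (2.10 to 2.69), Wnt7a (1.99 to 2.36) and En1 (1.34 to 2.67) followed, and neighbours among these 3 overlapped, so their order did not exceed the spread over libraries. Sp9 was last, at 0.109 to 0.227 CPM per kilobase, below each of the other 5 genes in every library. In wild type, En1 (1.35 and 1.34) was below Wnt7a (2.25 and 2.36) and Lmx1b (2.20 and 2.10). In Shh null, En1 (2.20 and 2.67) was above Wnt7a (2.0004 and 1.99) in both libraries and on both sides of Lmx1b's lower value (2.33). The order of the means was the same with the longest transcript as the length.

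**Figure D2:**
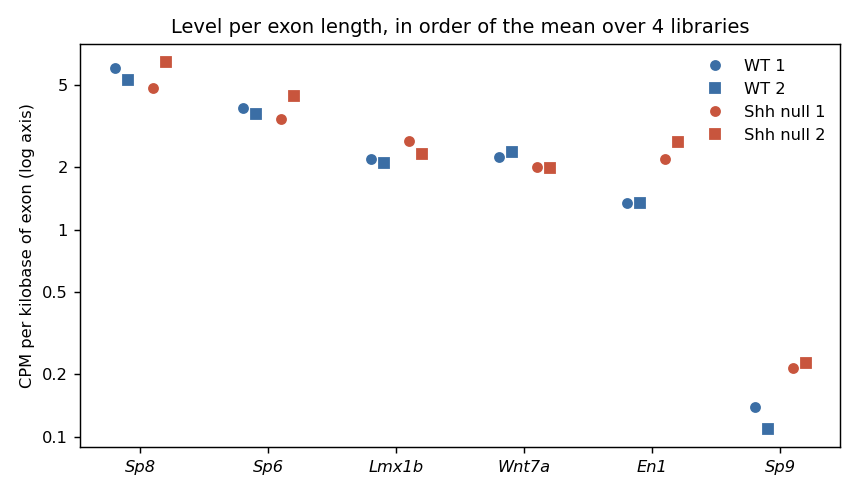
CPM per kilobase of exon (log axis) for each gene in each library, ordered by the mean over the 4 libraries; colour gives the genotype and shape the replicate. Sp8 and Sp6 stand apart at the top, at means of 5.64 and 3.83, Sp9 at the bottom, at 0.172, and En1 moves from below Wnt7a in wild type to above it in Shh null.

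The ectoderm was present in all 4 libraries. Of 17 surface ectoderm markers (keratins, Epcam, Cdh1, Trp63 and others), none was at 0 in any library, and their summed level was 583 and 566 CPM in wild type and 661 and 668 CPM in Shh null. None of the 17 was called by limma, edgeR or DESeq2, and the median log2 fold change was 0.21. An unadjusted limma p under 0.05 was found for 6 that were higher in Shh null and 1 that was lower, beside 18.5% of all genes in either direction. Krt5, a basal keratin, had the largest positive value among the markers, 0.41 (limma, adjusted p = 0.105). Tfap2c, an ectodermal transcription factor, had the largest negative one, −0.55 (19.2 and 19.4 CPM against 12.3 and 13.4, limma, adjusted p = 0.0680). In the authors' deposited table the false discovery rate was 0.0282 for Tfap2c, under 0.05, and 0.0939 for Krt5. The geometric mean below includes both. The geometric mean of the 17 markers was 25.8 and 24.7 CPM in wild type and 28.3 and 29.2 CPM in Shh null, 1.14 times as high. Relative to it, En1 was 0.137 and 0.143 in wild type, against 0.204 and 0.240 in Shh null, 1.58 times as high. Wnt7a relative to the same markers was 0.276 and 0.303 in wild type, against 0.224 and 0.216 in Shh null, a ratio of 0.760. The ratios for the Sp genes were 0.916 (Sp6), 0.874 (Sp8) and 1.56 (Sp9), and for Lmx1b, which ectoderm is not known to supply, 1.03. The markers' mean was higher in Shh null, so this scale lowered the ratio of every gene. The En1 difference was therefore smaller than on the scale of the whole library and that of Wnt7a larger. With Epcam, Cdh1 and Krt18 alone as the scale, which are among the 17, the ratios were 1.59 for En1 and 0.765 for Wnt7a.

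Other cell types were read from marker lists. Of 9 limb mesenchyme markers, 5 were called higher (among them Twist1, Prrx2 and Lhx9) and 1, the mesenchymal ligand Fgf10, lower, beside 2.48% of all genes called. The summed level of the 9 was 1657 and 1792 CPM in wild type and 2345 and 2248 CPM in Shh null. The median log2 fold change of the list was 0.50. Without Shh null 1 or Shh null 2, Twist1 was at 0.77 or 0.61 and Fgf10 at −0.86 or −0.90 (limma, log2 fold change). Twist1, a mesenchymal bHLH factor, rose from 181 and 181 CPM to 276 and 309 CPM (limma, log2 fold change 0.69, adjusted p = 0.00723). Macrophage markers summed to 6.84 and 7.22 CPM in wild type and 14.9 and 13.1 CPM in Shh null. Of 3 tested, Cx3cr1, a chemokine receptor gene, was called higher, beside 2.48% of all genes called. C1qb, a complement gene, was at 0.76 (limma, adjusted p = 0.0843). All 3 were higher in Shh null at an unadjusted limma p under 0.05, beside 18.5% of all genes in either direction. In the authors' deposited table the false discovery rate was 0.000498 for Cx3cr1, 0.0143 for C1qb and 0.0235 for Csf1r. Under 0.05 were 4.01% of that table's genes, and Aif1, the marker not tested here, was not. The Cx3cr1 call ended without either Shh null library (limma, adjusted p = 0.313 and 0.0707). None of the 5 somite genes (medians −0.12, with Meox2 and Meox1 at −0.48 and −0.40), 5 endothelial genes (−0.01, with Tek at 0.12 and Pecam1 at −0.11) or 3 erythroid genes (−0.34, with Hbb-bh1 at −0.39 and Hba-x at −0.34) was called by limma, edgeR or DESeq2. An unadjusted limma p under 0.05 was found for 2 somite genes, both lower in Shh null, and for no endothelial or erythroid gene, beside 18.5% of all genes. Meox2 was at −0.19 without wild type 1 and −0.77 without wild type 2, and Meox1 at −0.62 and −0.18. Of 10 neural markers, 4 had a row in the table, Sox1 was at 0 in a library, and Tubb3, the only gene tested, had a log2 fold change of 0.08. The part of mesenchymal or macrophage RNA in the values of Lmx1b and En1 was not tested.

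Upstream of En1, the BMP route was represented by 11 ligand, receptor, SMAD and target genes, of which 1 rose, none fell and 10 did not pass the test. Of all genes tested, 2.48% were called. The median log2 fold change of the list was 0.08. Msx2, a homeobox target of BMP signalling, rose from 26.1 and 25.0 CPM in wild type to 64.4 and 71.2 CPM in Shh null (2.66-fold, limma, log2 fold change 1.37 ± 0.11 SE, adjusted p = 0.000265). Its relative Msx1 stood at 7.93 and 4.90 CPM in wild type and 10.6 and 10.8 CPM in Shh null (limma, log2 fold change 0.69, adjusted p = 0.116). That value turned on the wild-type libraries, at 0.99 without wild type 1 and 0.39 without wild type 2 (limma). The ligand genes, chosen after their values were seen, did not lie to the same side. Bmp4 was at 65.7 and 53.7 CPM in wild type against 46.3 and 46.5 CPM (limma, log2 fold change −0.35, adjusted p = 0.162), and Bmp2 had a log2 fold change of −0.46 (0.268). Bmp7 was at 47.9 and 43.4 CPM against 53.9 and 50.3 CPM (limma, log2 fold change 0.19, adjusted p = 0.393).

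The WNT and beta-catenin route, which acts upstream of the Sp factors, held 15 tested genes, and limma called none of them. The median log2 fold change was 0.29, 12 of the 15 were above 0, and 6 had an unadjusted p under 0.05, all higher in Shh null, beside 18.5% of all genes in either direction. With edgeR 2 of the 15 were called higher and with DESeq2 5, beside 2.45% and 3.98% of all genes. In the authors' deposited table Axin2, Wnt4, Wnt6, Dkk1 and Lef1 had false discovery rates of 0.00512, 0.00714, 0.00721, 0.0251 and 0.0340. All were higher in Shh null there, and the other genes of the list were not under 0.05. That threshold was met by 4.01% of that table's genes. Axin2, Dkk1 and Lef1 are named after their values were seen. Fits without a library are given by log2 fold change only, for the reason stated for Shh. Wnt4, a WNT ligand, stood at 9.26 and 7.77 CPM in wild type and 16.2 and 13.3 CPM in Shh null (limma, log2 fold change 0.72, adjusted p = 0.0524, with edgeR 0.0487, with DESeq2 0.0227). Leaving out a library gave log2 fold changes for Wnt4 of 0.59 (without Shh null 1) to 0.86 (without Shh null 2) in limma. Wnt6, a ligand of the limb ectoderm, stood at 26.8 and 18.5 CPM against 39.3 and 35.2 CPM (limma, log2 fold change 0.71, adjusted p = 0.0595, with edgeR 0.0617, with DESeq2 0.00908). Its log2 fold change in limma was 0.97 without wild type 1, 0.46 without wild type 2, 0.64 without Shh null 1 and 0.79 without Shh null 2. Wnt3, the ectodermal ligand of ridge formation, was at 11.7 and 10.4 CPM against 13.5 and 14.4 CPM and did not pass (limma, adjusted p = 0.285). The groups did not overlap for these 3 ligands, beside 50.2% of all genes tested. Wnt4 and Wnt6 are named for the size of their change and Wnt3 for its likeness to Sp9. Their lack of overlap therefore adds nothing to the values above.

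The ridge itself was read from 12 genes, of which 10 were tested: 2 rose (Dlx3 and Jag2), 3 fell (Fgf4, Fgf8 and Fgf9) and 5 did not pass the test. Over all genes tested, limma called 2.48%. The 5 calls became 2 with no filter on low values and 3 with quantile normalization. The median log2 fold change was −0.13. Fgf8, the ridge growth factor whose expression needs Sp6 and Sp8, fell from 30.2 and 21.3 CPM to 5.23 and 10.339 CPM (3.31-fold, limma, log2 fold change −1.65, adjusted p = 0.0126). Without Shh null 1 or Shh null 2 its log2 fold change was −1.22 or −2.08. Fgf4, another ridge growth factor, fell from 12.3 and 9.81 CPM to 1 and 3 reads, a ratio of pooled reads of 0.00769 (counting interval 0.00209 to 0.0198; limma, adjusted p = 1.95e-05). Fgf9 fell from 9.41 and 5.62 CPM to 1.58 and 2.61 CPM (limma, log2 fold change −1.44, adjusted p = 0.0179). Its log2 fold change was −1.20 and −1.69 without Shh null 1 and 2. Dlx3, a homeobox gene of ectoderm and ridge, rose from 2.28 and 2.09 CPM to 5.10 and 4.99 CPM (limma, log2 fold change 0.92, adjusted p = 0.0241). Its log2 fold change was 0.91 and 0.94 without Shh null 1 and 2. Beside these, the ratio of Fgf8 to Sp8 within a library was 1.10 and 0.886 in wild type, against 0.238 and 0.352 in Shh null, 0.297 times the wild-type mean. No test was made of this ratio. The limma intervals of Sp6 and Sp8 reached at most 0.36 below 0 on the log2 scale. They are values of whole forelimbs, so the level of Sp6 and Sp8 within the ridge was not measured. The part of Sp6 or Sp8 in the fall of the 3 called FGF genes was not tested.

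**Figure D3:**
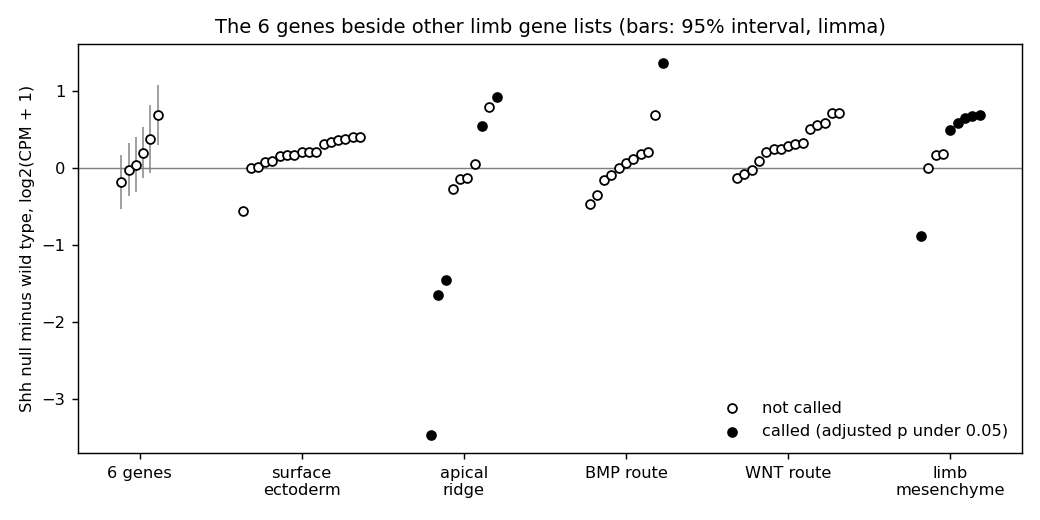
Log2 fold change, Shh null minus wild type, on the scale of log2(CPM + 1), for the 6 genes and for the tested genes of 5 lists, in order of value within each; filled points passed limma at an adjusted p under 0.05, and bars (95% intervals) are drawn for the 6 genes. The 6 genes lie between −0.18 and 0.70 with no filled point, while Fgf4, Fgf8 and Fgf9 of the ridge reach −3.46, −1.65 and −1.44 and Msx2 of the BMP route reaches 1.37.

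Close relatives of the 6 genes can share reads with them where sequences are alike, and the counting rule for such reads is not given in the sources used here. Of 9 relatives, 6 were tested and none was called by limma, edgeR or DESeq2, with a median log2 fold change of −0.07. In limma, 1 of the 6 had an unadjusted p under 0.05 (Sp1), beside 18.5% of all genes. Wnt7b, the paralog of Wnt7a, stood at 11.2 and 7.38 CPM in wild type and 12.6 and 11.6 CPM in Shh null (limma, log2 fold change 0.37, adjusted p = 0.337), on the other side of 0 from Wnt7a. Sp1, the founding member of the Sp family and broadly expressed, stood at 118 and 123 CPM against 105 and 102 CPM (limma, log2 fold change −0.22, adjusted p = 0.252). Sp5 and Sp7 were below the filter, as Sp9 would have been on its wild-type values alone. En2, the paralog of En1, was not analysed here.

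Among the other genes of these lists and the 6 themselves, 90 candidates in all, the profile most like each gene over the 4 libraries was found as the smallest root mean square difference of centred log2(CPM + 1). En1 was nearest to Twist1 (0.0294) and Csf1r (0.0798), a macrophage receptor gene, which share its step between the genotypes. Sp8 was nearest to Krt18, a simple keratin gene (0.0229), and then to Sp6 (0.0520), and Sp6 to Emcn, an endothelial gene (0.0510), and then to Sp8. These profiles share the low value of Shh null 1. Wnt7a was nearest to Sp1 (0.0232) and Bmpr1a (0.0253), Lmx1b to Tfap2a (0.0210) and Tbx5 (0.0408), and Sp9 to Wnt3 (0.0364) and Grhl3 (0.0423). With 4 libraries of 2 genotypes, these distances are a description only.

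Across 12 other ways of processing, En1 had the largest log2 fold change of the 6 and stayed between 0.58 and 0.86. In those that kept every library its adjusted p (limma, edgeR or DESeq2) was between 0.0683 and 0.146, and none of the 6 was called. Wnt7a stayed below 0 (−0.28 to −0.15), and Lmx1b (0.11 to 0.30) and Sp9 (0.24 to 0.82, in the 11 that tested it) stayed above 0. Without wild type 1, the log2 fold changes were −0.21 for Wnt7a, 0.23 for Lmx1b and 0.44 for Sp9. Sp6 and Sp8 lay on both sides of 0 (−0.12 to 0.22 and −0.22 to 0.19), so no direction can be given for them. In the authors' deposited table the log2 fold changes were −0.205 for Wnt7a, 0.222 for Lmx1b, 0.0599 for Sp6, −0.00815 for Sp8 and 0.794 for Sp9, with false discovery rates of 0.761, 0.689, 0.981, 1.0 and 0.373.

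**Figure D4:**
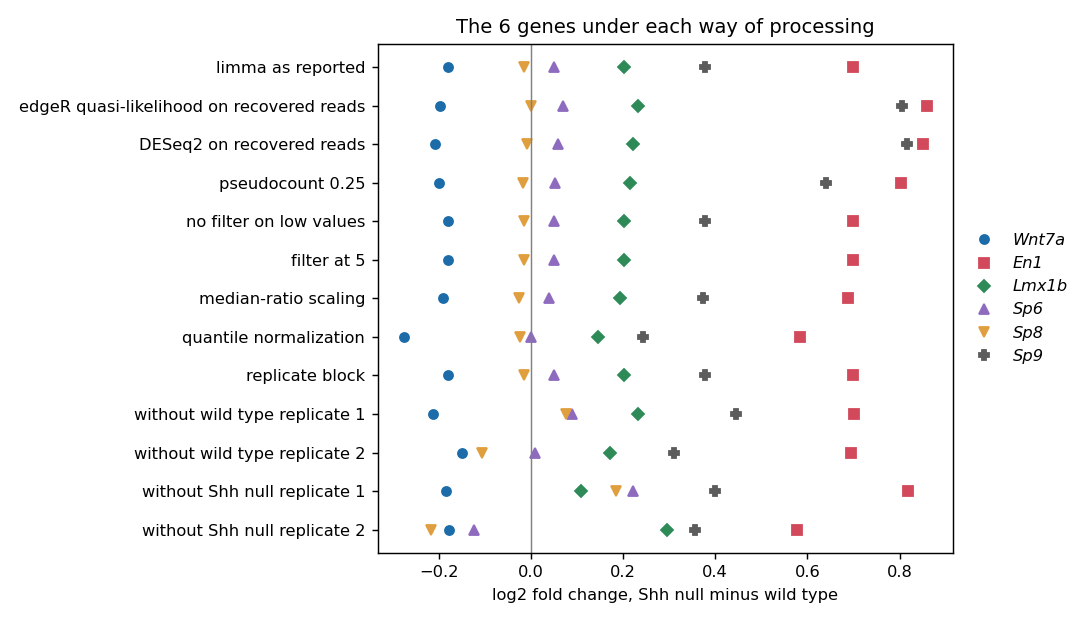
Log2 fold change, Shh null minus wild type, of each of the 6 genes (marker shape and colour) under each way of processing, one row each; edgeR and DESeq2 rows are on the scale of counts, all others on that of log2(CPM + pseudocount). En1 stays between 0.58 and 0.86 and Wnt7a between −0.28 and −0.15 in every row, while Sp6 and Sp8 cross 0.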

How the data were processed

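The authors deposited a signal value per gene and library, which is CPM on a TMM-scaled library size. All values (100%, within a tolerance of 0.001 reads) were whole multiples of 1 read, so whole reads were recovered by division. A second deposited table, quoted only by name, gives the authors' log2 fold changes and p-values. Per the submitters' processing notes, TopHat2 2.0.9, SAMtools, HTSeq 0.5.4p5, edgeR 3.4.2 and build mm10 were used; the sources used here give neither their roles nor the annotation or strand setting.

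Genes with at least 1 CPM in at least 2 libraries were fitted as log2(CPM + 1) with limma 3.58.1 (R 4.3.3, eBayes with trend, genotype as the only term), adjusted by Benjamini-Hochberg over all 13224 genes and called at an adjusted p under 0.05. Log2 fold changes on this scale understate low genes, and folds are ratios of mean CPM. edgeR 4.0.16 (quasi-likelihood) and DESeq2 1.42.0 ran on the recovered reads, and other filters, pseudocounts (0.25), scalings, a replicate block and leaving out each library were tried. Leaving out a library left a single one in its group, so the spread came from the other genotype alone. Counting intervals (95%, exact) cover counting error only. The limma fit was tested on simulated data, and the edgeR and DESeq2 fits were not.

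The 6 genes, the 11 lists and the tests were chosen with earlier results of these data known. Named are the 6 genes, Shh, up to 4 called genes of each list by size of change (where at most 1 was called, the 2 genes that moved most), and the 2 most alike profiles per gene. A gene of the erythroid list is not reported here. Others are said to be chosen after their values were seen or serve as checks. Positions and lengths are from GENCODE M21 for mm10. Libraries of a group differed by more than sampling noise (chi-square 22.4 and 14.8 times the degrees of freedom within wild type and within Shh null, against 17.2 to 45.1 times between groups), so no pair was treated as 1 library deposited under both numbers. This does not tell technical from biological replicates.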

Additional observations from a re-analysis of the deposited data

How the results depend on the processing

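Of all genes, 328 were called; DESeq2 called 526 and a fit with no filter on low values 170, and leaving out a library gave 56 (without Shh null 1) to 802 (without wild type 2), with 99 without Shh null 2 and 459 without wild type 1. Higher calls were 50% of the 328, 26.79% without Shh null 1 and 39.39% without Shh null 2. Deviations from the group mean correlated weakly and negatively between same-numbered libraries (r = −0.2033 over 13224 genes), so shared numbers gave no sign of pairing. With the replicate block limma called 396 genes and none of the 6; edgeR with the replicate block, added after the data were seen, called 673 and 1 of the 6, En1 (0.8489, adjusted p = 0.0437). A block of crossed numbers, also added, called 1386 genes and 1 of the 6.

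Signs turned for Sp6 with quantile normalization (−0.0001286) and when libraries were left out (−0.1237 to 0.2222), and for Sp8 with edgeR (0.0004218) and when libraries were left out (−0.2168 to 0.1854). They turned also for Tubb3 (−0.001395 with quantile normalization; −0.007594 to 0.168 with a library left out), and, with a library left out, for Tek (−0.04149 to 0.2895), Pecam1 (−0.304 to 0.08725), Hba-x (−1.3 to 0.6285) and Hbb-bh1 (−1.318 to 0.5448, with 0.07731 without Shh null 1). The cause was not tested. For the genes named from the lists and Shh, 286 values kept direction and call, 19 gained a call and 23 lost it. These counts include fits that left out a library, whose spread came from the other genotype alone. With 2 libraries a group, log2 fold changes under 0.67 to 0.89 could not be called for the 6 genes. Sp9 was not tested at a filter of 5 CPM.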
